A study of Homo sapiens with 2 samples.

Results

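A set of 10 genes that mark the epithelial or the mesenchymal state of a cell were examined in H9 human embryonic stem cells, 5 of each kind. The members were CDH1, EPCAM, CLDN6, CLDN7 and ESRP1 on the epithelial side and CDH2, VIM, ZEB1, ZEB2 and SNAI2 on the mesenchymal side. They were taken by name, with earlier results of these data known, and stand among 19126 protein-coding genes of chromosomes 1 to 22 in the RefSeq annotation of GRCh38.p14. Each was read over its annotated interval extended by 10000 bp on both sides. On the plus strand lie CDH1 (chr16:68737292-68835537), EPCAM (chr2:47369311-47387020), ESRP1 (chr8:94641174-94707466), VIM (chr10:17228241-17237593) and ZEB1 (chr10:31318417-31529804). On the minus strand lie CLDN6 (chr16:3014712-3018183), CLDN7 (chr17:7259903-7263213), CDH2 (chr18:27932879-28177130), ZEB2 (chr2:144384081-144520119) and SNAI2 (chr8:48917598-48921429).

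The study made ATAC-Me libraries, in which the Tn5 transposase cuts open chromatin and the recovered fragments are then read for cytosine methylation, so that accessibility and methylation come from the same DNA. The series held 1 group of 2 replicates. Both were H9 cells, an established human embryonic stem cell line labelled as pluripotent, kept on Matrigel in mTeSR medium, and the labels name no treatment and no engineered allele. No label states that the cells of each replicate were grown apart. The SDs below therefore measure the spread of these 2 samples, which can be technical. Intervals and p-values below take only the counting error of reads into account. With 1 group no condition could be compared.

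Epithelial cells hold together through adherens and tight junctions, while mesenchymal cells carry vimentin filaments and move singly, and the passage between these states is called the epithelial-mesenchymal transition. The repressors ZEB1, ZEB2 and SNAI2 bind short E-box sequences in epithelial promoters such as that of CDH1, and the microRNAs of the miR-200 family in turn target ZEB1 and ZEB2. Human embryonic stem cells grow as tight colonies joined by E-cadherin, and CpG methylation at a promoter is usually associated with a silent gene.

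Replicate 1 held 28475863 CpG reads on the autosomes and covered 31.6% of 27852739 CpGs, and replicate 2 held 51406146 and covered 59.0%. Of these reads 32.3% were methylated in replicate 1 and 46.0% in replicate 2, and the part of this overall gap in the replicate differences below was not tested. As a check of the label, 9 of 10 pluripotent stem cell markers had enough reads at their starts, and all 9 were under 20% methylated with a peak there, while POU5F1 had no read in that window. None of the 3 measured stratified epithelium starts was under 20% (KRT5 88.3% ± 4.94, TP63 88.0% ± 1.47, SFN 53.1% ± 5.26, SD, n = 2). The measured starts of neural progenitor markers (5 of 5) and of fibroblast markers (3 of 4) were under 20% as well, so a low start did not separate these cell types.

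The starts of all 10 genes were nearly free of methylation in both replicates. Methylation was taken as methylated CpG reads over all CpG reads within 500 bp of the outermost annotated start, and a start was called low when it was under 20% in both replicates. By that rule 10 of 10 members were low, and so were 90.7% of the 11229 protein-coding genes with at least 20 such reads per replicate. The members thus stood where most genes stand, and their means of 0% to 2.48% lay around the all-gene median of 1.19%.

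Among the epithelial junction genes, CDH1, which encodes E-cadherin, had 1.02% of 683 CpG reads methylated in replicate 1 and 1.26% of 1192 in replicate 2. EPCAM, an adhesion molecule of epithelial cells, had 0.484% of 1032 and 1.17% of 1712. CLDN6, a tight-junction claudin found in early embryonic epithelia, had 0.432% of 695 and 2.71% of 1293. These 3 starts were deeply read and stayed under 3% in each library. CLDN7, another claudin, gave the highest mean of the members, 2.48% ± 0.526 (SD, n = 2), from 2.11% of 95 reads and 2.85% of 351. ESRP1, a splicing regulator that maintains epithelial isoforms, had 0.450% of 1332 reads and 0.872% of 1490.

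Among the mesenchymal genes, CDH2, which encodes N-cadherin, had 0.194% of 515 reads methylated in replicate 1 and 1.35% of 815 in replicate 2. VIM, the gene of the intermediate filament protein vimentin, had 0.245% of 817 and 3.0% of 533. In replicate 1 these and the other mesenchymal starts were all lower than any epithelial start. The repressor ZEB1 had 0 of 198 reads methylated in replicate 1, which allows up to 1.52%, and 2.95% of 271 in replicate 2. Its relative ZEB2 had no methylated read in either library, 0 of 89 and 0 of 103, which allows up to 3.37% and 2.91%. SNAI2, the repressor also called Slug, had 0.331% of 605 and 1.95% of 513. No upper bound of a 95% Wilson interval at these starts passed 7.35%, the bound of CLDN7 in replicate 1. Reads at neighbouring CpGs of a fragment are not independent, so these intervals cover counting error only and are too narrow.

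Replicate 2 was higher at 9 of the 10 starts, and ZEB2 was equal at 0%. The median of the 5 epithelial starts was 0.484% in replicate 1 and 1.26% in replicate 2, and that of the mesenchymal starts 0.194% and 1.95%. The epithelial median minus the mesenchymal one was 0.290 percentage points in replicate 1 and -0.691 in replicate 2, with a mean of -0.200 ± 0.694 (SD, n = 2). The sign changed between the replicates. In replicate 1 the ranges of the gene classes did not overlap. Mesenchymal starts ran from 0% to 0.331% there, and epithelial ones from 0.432% to 2.11%. The counts of 0 at ZEB1 and ZEB2 in that replicate allow up to 1.52% and 3.37%. In replicate 2 the ranges overlapped.

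**Figure D1:**
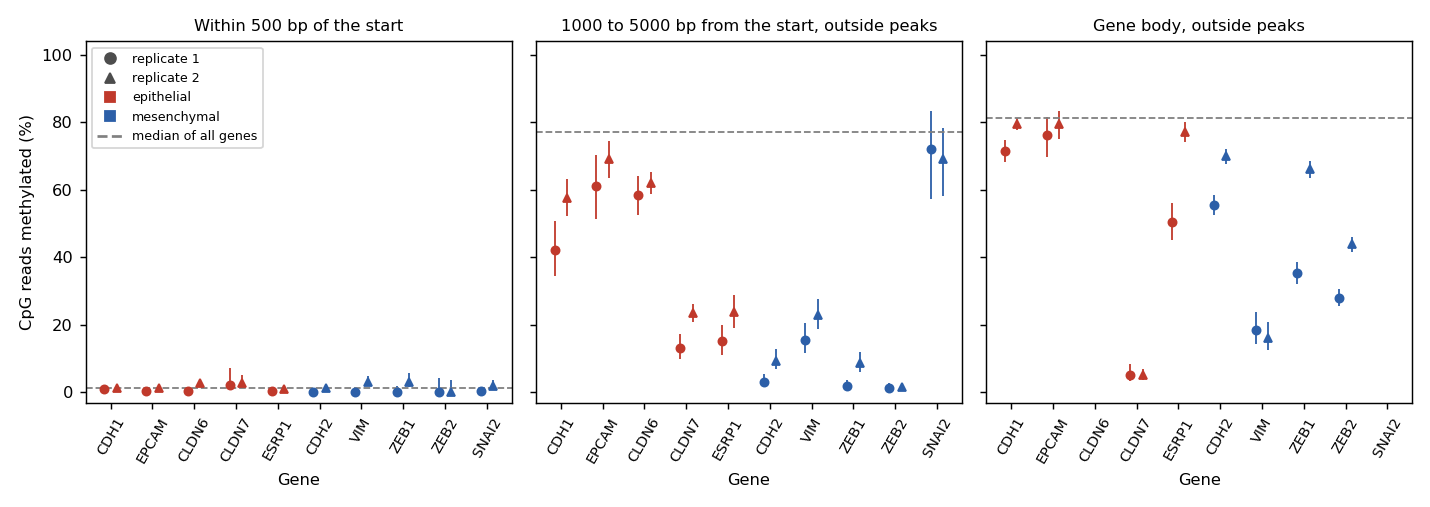
Percent of CpG reads methylated for each gene within 500 bp of its start (left), 1000 to 5000 bp from the start outside peaks (middle) and over the gene body outside peaks (right), with circles for replicate 1, triangles for replicate 2, 95% Wilson intervals as bars and the all-gene median of the replicate means as a dashed line. The highest start is VIM in replicate 2 at 3.0%, whereas CDH2, ZEB1 and ZEB2 are the genes whose flanks are under 20% in both replicates, and CLDN6 and SNAI2 have no body point because their reads were too few.

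The promoter table of RefSeq held 6 of the 10 members. CDH1, EPCAM, ESRP1 and SNAI2 had no entry. The sequences below are the 250 bases before the outermost start of a claudin gene and of both ZEB repressors, shown because the starts of the repressors and of a gene class they repress were all low here. Bases are 5′ to 3′ on the strand of the gene, and capitals mark the E-box CAGGTG, searched on both strands and so also read as CACCTG. ZEB1 is at chr10:31318167-31318416 on the plus strand, ZEB2 at chr2:144520120-144520369 on the minus strand and CLDN6 at chr16:3018184-3018433 on the minus strand.

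ZEB1: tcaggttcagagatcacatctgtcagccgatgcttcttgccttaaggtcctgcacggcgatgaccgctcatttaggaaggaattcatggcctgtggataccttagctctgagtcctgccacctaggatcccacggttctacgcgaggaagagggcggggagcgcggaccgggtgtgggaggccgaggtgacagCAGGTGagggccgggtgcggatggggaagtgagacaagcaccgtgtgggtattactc
ZEB2: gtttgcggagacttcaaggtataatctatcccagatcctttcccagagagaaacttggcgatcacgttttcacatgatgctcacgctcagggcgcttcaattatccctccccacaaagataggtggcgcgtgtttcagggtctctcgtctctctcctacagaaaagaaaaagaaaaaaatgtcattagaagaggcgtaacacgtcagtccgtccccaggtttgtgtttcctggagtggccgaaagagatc
CLDN6: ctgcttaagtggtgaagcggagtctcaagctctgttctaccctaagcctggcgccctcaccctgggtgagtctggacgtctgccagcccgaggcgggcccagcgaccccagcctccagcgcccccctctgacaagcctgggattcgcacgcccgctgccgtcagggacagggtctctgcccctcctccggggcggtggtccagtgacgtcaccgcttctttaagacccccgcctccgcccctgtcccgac

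The ZEB1 window held 1 E-box, 57 bases before the start, while the ZEB2 and CLDN6 windows held 0, as did those of VIM, CDH2 and the outermost start of CLDN7. Over all 21156 annotated starts of protein-coding genes, 17.2% of windows of this length held at least 1. These windows carried 15 CpGs in ZEB1, 12 in ZEB2 and 18 in CLDN6. CLDN7 has a second annotated start 735 bp inside the first, at position 7262478 of chromosome 17, and the 250 bases before that one held 4 E-boxes, 174, 135, 20 and 9 bases before it. At least 3 were found in 0.435% of windows. These distances count to the first base of the motif. The window of an inner ZEB1 start, 799 bp into the gene, held 2, at 242 and 85 bases, and at least 2 were found in 2.37% of windows. All other inner ZEB1 windows and the inner CDH2 window held 0. The last 30 bases before the inner CLDN7 start, chr17:7262479-7262508 on the minus strand, are shown because they hold 2 of the 4.

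CLDN7, inner start: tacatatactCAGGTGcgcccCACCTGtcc

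The inner CLDN7 start was low too, with 1.41% of 566 reads methylated in replicate 1 and 0.995% of 1105 in replicate 2. It was read more deeply than the outer start, where 95 and 351 reads were found. ZEB1 has 7 annotated starts, and the first 5, spread over 2137 bp, had no methylated read in replicate 1 and between 1.23% and 2.95% in replicate 2. The start 2784 bp into the gene had 1.61% of 124 reads and 5.17% of 58, and that at 3243 bp 16.7% of 6 and 13.3% of 15. Windows of neighbouring ZEB1 starts overlap and share reads, so they are not separate observations. A match to a motif is a description of the letters only, and binding was not measured.

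The starts differed in how often they were read. Coverage, in reads per CpG within 500 bp of the start, was divided by the median over all measured genes (8.27 reads per CpG in replicate 1 and 12 in replicate 2). This measure was chosen after the data were seen. ESRP1 was the most covered member, at 3.83 times the all-gene median in replicate 1 and 2.96 times in replicate 2. CLDN6 reached 1.33 and 1.71 times, EPCAM 1.23 and 1.41, and CDH1 1.09 and 1.31. CLDN7 was lower at its outermost start, at 0.302 and 0.770 times, but stood at 0.937 and 1.26 times at its inner start. On the mesenchymal side ZEB2 lay lowest at 0.336 and 0.268 times, ZEB1 at 0.427 and 0.403, and CDH2 at 0.527 and 0.576. VIM and SNAI2 fell on opposite sides of the all-gene median in the replicates, at 1.80 and 0.808 times for VIM and 1.49 and 0.872 for SNAI2.

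The epithelial median was 1.23 times the all-gene median in replicate 1 and 1.41 in replicate 2, and the mesenchymal one 0.527 and 0.576 times. Their difference was 0.772 ± 0.0916 (SD, n = 2), larger than the spread between replicates, but the members of the classes overlapped, since CLDN7 lay below VIM and SNAI2 in both replicates. The difference depended on the window, at 1.13 within 250 bp and 0.275 within 1000 bp, and was 0.473 without ZEB1 or without ZEB2. CpG density at the start differed too, from 3.20 CpGs per 100 bp in ZEB2 to 11.8 in CDH2, with an all-gene median of 7.29, and its part in the coverage was not tested.

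**Figure D2:**
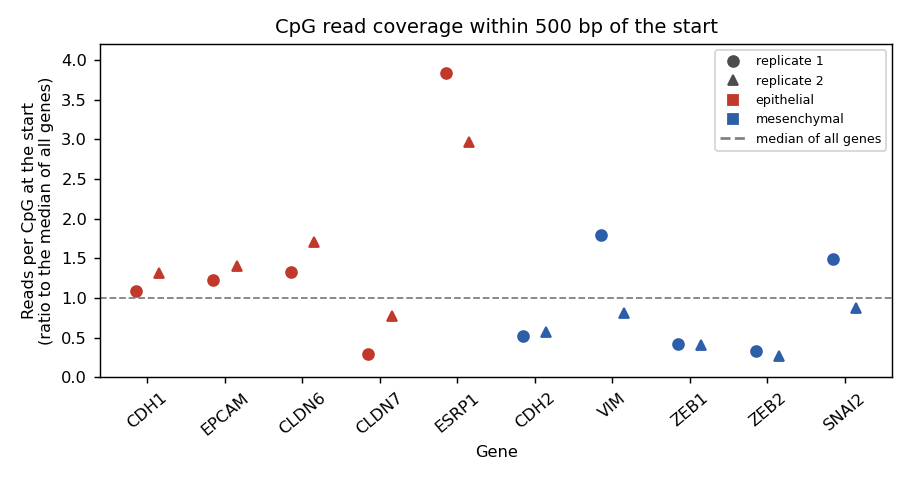
Reads per CpG within 500 bp of the start of each gene, divided by the median over all measured genes in the same replicate, with circles for replicate 1, triangles for replicate 2 and a dashed line at the all-gene median. ESRP1 stands at 3.83 and 2.96 times the median, while CDH2, ZEB1, ZEB2 and CLDN7 lie below it in both replicates.

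Beside the starts, in the 1000 to 5000 bp on either side, the mesenchymal median was lower than the epithelial one in both replicates. This flank was chosen after the data were seen, and peaks were left out of it after values with and without them were known, so both are given. Without peaks, ZEB2 had 1.45% of 550 flank reads methylated in replicate 1 and 1.51% of 662 in replicate 2. ZEB1 had 1.89% of 475 and 8.60% of 372, and CDH2 had 2.95% of 339 and 9.42% of 382. These 3 mesenchymal genes were under 20% in both replicates, against 6.43% of 12387 genes with enough reads. In CDH2 most flank reads lay within 2000 bp of the start, and in ZEB1 within 3000 bp. VIM followed at 15.6% and 22.9%, and the mesenchymal gene SNAI2 stood apart at 72.1% of 43 reads and 69.2% of 78.

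No epithelial member was under 20% in both replicates by this measure. CLDN7 had 13.2% and 23.4% of its flank reads methylated, and ESRP1 15.1% and 23.7%. CDH1 had 42.3% of 137 reads and 57.7% of 310, CLDN6 58.4% and 62.1%, and EPCAM 61.2% and 69.3%. All 5 lay under the all-gene medians of 74.0% in replicate 1 and 79.8% in replicate 2. The ranges of the classes overlapped, since in replicate 1 SNAI2 lay above every epithelial gene and VIM above CLDN7 and ESRP1.

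The epithelial median of the flank was 42.3% in replicate 1 and 57.7% in replicate 2, and the mesenchymal median 2.95% and 9.42%. The latter are the values of CDH2, whose flank reads lay mostly within 2000 bp of the start. The difference was 43.9 percentage points ± 6.32 (SD, n = 2) and had the same sign in both replicates. With peaks kept in, it was 14.4 ± 4.44, from epithelial medians of 13.2% and 23.4% and mesenchymal ones of 1.93% and 5.81%. Then 2 epithelial genes (CLDN6 and ESRP1) and 4 mesenchymal genes (all but SNAI2) were under 20%, against 14.9% of 12454 genes. Without EPCAM, or without CLDN6, the difference outside peaks was 28.5 points.

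With peaks kept in, VIM was methylated before its start, at 96.7% of 30 reads and 88.7% of 71, and nearly free of methylation after it, at 1.76% of 740 and 3.01% of 730. ZEB1 had the same one-sided shape, with 0.435% of 690 and 1.92% of 626 after the start, but only 8 and 25 reads before it. CDH2 and ZEB2 were low on both sides, CDH2 at 2.18% and 7.43% before and 1.56% and 4.31% after, and ZEB2 at 1.16% and 1.23% before and 0.513% and 1.32% after. In replicate 1 the bin 1000 to 1500 bp before the CDH2 start held 440 of the 459 reads on that side. No 500 bp bin of CDH2 between 2000 and 5000 bp held more than 7 reads. After the ZEB1 start, none between 3000 and 5000 bp held more than 6, and after the VIM start none there held more than 5. After the ESRP1 start, none between 2000 and 5000 bp held more than 6. The CDH2 and ZEB1 values, and those of VIM and ESRP1 after the start, thus describe the CpGs nearer the start, not the whole flank. ESRP1 was the epithelial gene low on both sides, at 7.94% and 9.61% before and 4.07% and 7.23% after. The epithelial gene CLDN7 shared the one-sided shape of VIM and ZEB1. It had 67.9% of 28 reads and 81.5% of 135 methylated before its start, and 8.33% of 312 and 13.6% of 801 after. CLDN6 was low only before its start, at 4.44% and 8.58% against 80.6% and 76.5% after, and there the peaks of the neighbouring gene TNFRSF12A lie.

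**Figure D3:**
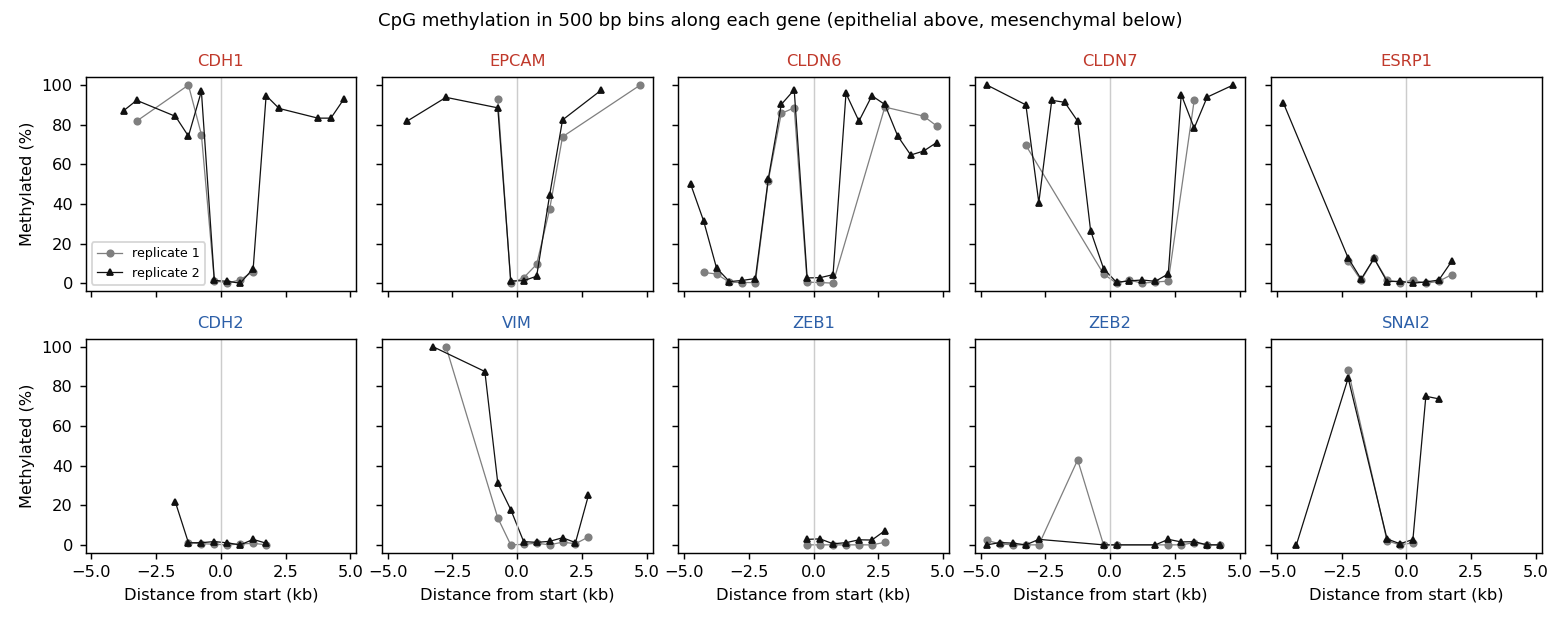
Percent of CpG reads methylated in 500 bp bins up to 5 kb on either side of the start of each gene (x axis, in kb along the direction of transcription), with peaks kept in and bins of at least 10 reads drawn, in grey circles for replicate 1 and black triangles for replicate 2. In replicate 2, CDH1, EPCAM and CLDN6 and the mesenchymal gene SNAI2 are over 70% methylated within 2 kb after the start, in bins that replicate 1 mostly left undrawn, while ZEB1 and ZEB2 stay under 8% in every drawn bin after the start.

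Gene bodies, read from 1000 bp after the start to the gene end with peaks left out, had a lower median in the mesenchymal genes, and the gap was smaller beyond the first 5000 bp. A body needed at least 50 CpG reads per replicate, which 8 members had. CLDN6 with 29 and 181 reads and SNAI2 with 3 and 30 did not. None of the 8 was over 80% in both replicates, against 44.6% of 11252 genes.

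CDH1 had 71.6% of 735 body reads methylated in replicate 1 and 79.4% of 1980 in replicate 2. EPCAM had 76.2% of 193 and 79.5% of 386, and ESRP1 50.6% of 310 and 77.3% of 737. CLDN7 was the low exception, at 5.30% of 302 and 5.12% of 723, in a gene of 3311 bp whose inner start lies close to where the body begins. CDH2 had 55.5% of 1070 reads and 70.0% of 1577. ZEB1 had 35.3% of 815 and 66.1% of 1326, the widest gap between replicates among these bodies. ZEB2 had 27.9% of 1264 and 43.9% of 1879, and VIM 18.6% of 258 and 16.2% of 308. With at least 5 reads at each CpG, the replicate mean went from 75.5% to 39.4% in CDH1, 77.8% to 51.2% in EPCAM, 64.0% to 15.8% in ESRP1, 62.8% to 14% in CDH2 and 35.9% to 10.3% in ZEB2. It also went from 5.21% to 3.13% in CLDN7, 17.4% to 9.72% in VIM and 50.7% to 36.3% in ZEB1. Read from 2000 bp after the start instead, the replicate mean was 57.9% in VIM and 12.6% in CLDN7. It was then 93.0% in EPCAM, 87.2% in ESRP1, 83.5% in CDH2, 81.0% in CDH1, 69.7% in ZEB1 and 36.3% in ZEB2. With all reads from 1000 bp on, the measured members ran from 5.21% to 77.8% among the epithelial genes. The mesenchymal ones ran from 17.4% to 62.8%, and the ranges overlapped.

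The median over 4 epithelial bodies was 61.1% in replicate 1 and 78.4% in replicate 2, and that over 4 mesenchymal bodies 31.6% and 55.0%. The difference was 26.4 percentage points ± 4.30 (SD, n = 2), and 16.5 when each CpG needed at least 5 reads. The first part of the body is also the flank after the start, so the body was read again from 5000 bp on. CLDN7 ends before that point and VIM had only 45 and 47 reads there (86.7% and 78.7% methylated). Over the other 6 genes the difference was 24.8 ± 16.2 points (SD, n = 2) for the body from 1000 bp on and 3.85 ± 1.74 from 5000 bp on, the latter from epithelial medians of 83.6% and 91.2% and mesenchymal ones of 78.5% and 88.6%.

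In that distal body ZEB1 stood at 81.9% of 348 reads and 88.7% of 979, and CDH2 at 78.5% of 750 and 88.6% of 1229. CDH1 had 78.1% and 83.3%, ESRP1 83.6% and 91.2%, and EPCAM 91.6% and 97.8%. ZEB2 alone among the 6 remained far below, at 40.2% of 874 reads and 60.7% of 1347, under the all-gene medians of 82.2% and 86.3%. EPCAM, ESRP1 and ZEB1 were over 80% in both replicates, as were 57.2% of 9572 genes.

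Open chromatin was found at the start of 9 of the 10 genes, against 84.2% of measured genes, where a peak counts if it overlaps the 1000 bp on either side of the start. The authors deposited 1 peak list for the group, whose signal value is their caller's own and is used here only to describe peaks. The intervals of the members held 41 peaks, 24 on the epithelial and 17 on the mesenchymal side. The strongest peak at a start was that of ESRP1 (chr8:94640432-94641241), with a signal of 3269, above 98.3% of autosomal peaks, whose median was 541. EPCAM (1817), CLDN6 (1744) and CDH1 (1685) came next, then SNAI2 (1417). CLDN7 had a peak of 271 on its outer start and one of 1156 near its inner start.

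VIM had peaks of 1020 and 449 at its start, and ZEB1 had 2 weaker ones, of 327 and 322. The VIM peak of 449 also lay at a start of VIM-AS1, and both ZEB1 peaks at a start of ZEB1-AS1. CDH2 is counted among the 9 through a peak whose summit lies 1310 bp before the start, with a signal of 1042, 101 CpGs and 0.828% and 0.871% of reads methylated. ZEB2 had no peak at its start. Its nearest one lay 4346 bp before the start with a signal of 1301, and its strongest 75560 bp inside the gene with 1737. ZEB2 also held 7 of the 9 intragenic peaks of the mesenchymal genes.

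Of the 41 peaks, 37 had at least 10 CpG reads per replicate and 1, in ZEB2, held no CpG. Under 20% methylation in both replicates were 33 of the 37, 20 of 22 epithelial and 13 of 15 mesenchymal ones, against 70.2% of 40703 autosomal peaks. All 11 peaks at the members' own starts were low, with means from 0.476% in CDH1 to 1.04% in CLDN6. The 9 peaks at a start or an end of another gene, and not at a member's own start, were low as well, from 0.700% to 4.06%.

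Of the 4 peaks that were not low, 3 lay inside genes and 1 before the start of CDH1. Peaks inside genes held few CpGs, with a median of 2, and of 12 such peaks with enough reads 9 were low. The CDH1 peak, of 4 CpGs and 5126 bp before the start, had 4.55% of 22 reads methylated in replicate 1 and 31.4% of 35 in replicate 2. The highest of the 4 was in ZEB1 at chr10:31468289-31468573, 149997 bp after the start, where 1 CpG had 48.4% of 31 reads methylated in replicate 1 and 31.2% of 16 in replicate 2. Of the 37 it was the only one at 20% or more in both replicates, against 21.7% of autosomal peaks, and none was over 80%, against 0.391%. In bulk libraries a methylated share of cells and a methylated share of alleles cannot be told apart. Another of the 4, in CDH1 and 7694 bp after the start, had 29.6% of 27 reads and 12.8% of 39. The last, in ZEB2 and 15813 bp after the start, had 25.0% of 20 reads and 9.52% of 21. A low peak of ZEB2, of 8 CpGs and 9492 bp after the start, had 0 of 128 reads and 0 of 82.

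The median over peaks was 0.823% in replicate 1 and 1.79% in replicate 2 for the epithelial genes and 0.635% and 1.75% for the mesenchymal ones. They differed by 0.187 percentage points in replicate 1 and 0.0383 in replicate 2, with a mean of 0.113 ± 0.105 (SD, n = 2). It turned to -0.379 when the gene intervals were not extended, -0.324 when weaker peaks, at or under the median q-value significance, were dropped, -0.0886 without CDH1, -0.0501 without ESRP1 and -0.469 without VIM.

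**Figure D4:**
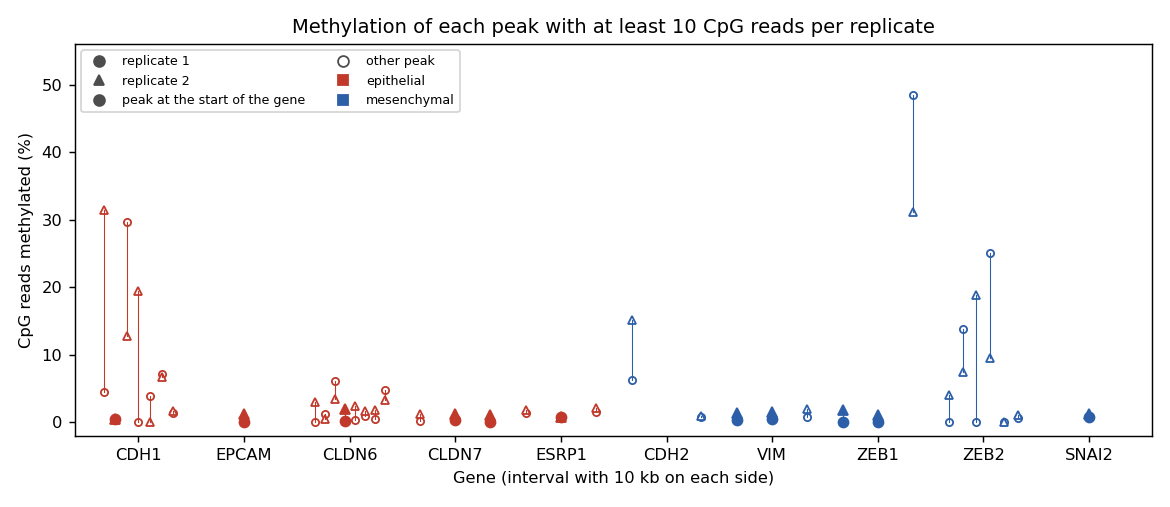
Percent of CpG reads methylated in each peak with at least 10 CpG reads per replicate, by gene, with circles for replicate 1, triangles for replicate 2, a line joining both values of a peak, and filled symbols for peaks at the start of the gene. Filled symbols all lie under 2%, and the highest open symbol is the intragenic ZEB1 peak at 48.4%.

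In all, 4 member peaks differed between the replicates by a two-sided Fisher's exact test with Benjamini-Hochberg adjustment over all 40703 peaks, of which 7.89% were called. The start peak of EPCAM had 0 of 919 reads methylated in replicate 1 and 1.23% of 1387 in replicate 2 (Fisher's exact test, adjusted p = 0.00684). That of CLDN6 had 0.159% of 628 and 1.91% of 1149 (Fisher's exact test, adjusted p = 0.0160). The others lay at the shared start of HCFC1R1 and THOC6 near CLDN6 (0.438% and 1.81%, Fisher's exact test, adjusted p = 0.0275) and at that of CTDNEP1 and ELP5 near CLDN7 (0.120% and 1.28%, Fisher's exact test, adjusted p = 0.0327). All 4 were higher in replicate 2, and 7.19% of all peaks were called in that direction. Since reads of a fragment are shared by its CpGs, these p-values are too small. After centring on the median difference of all peaks and correction for overdispersion, 47 peaks and none of the 4 passed.

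The microRNA loci whose products target ZEB1 and ZEB2 were largely methylated in both libraries and held no peak. Their mature sequences from RefSeq are shown in groups of a shared seed, bases 2 to 8 in capitals, the part that pairs with a target. The first 3 share AAUACUG and the next pair AACACUG, while miR-205, another microRNA known to target both repressors, has a seed of its own.

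hsa-miR-200b-3p: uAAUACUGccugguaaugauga
hsa-miR-200c-3p: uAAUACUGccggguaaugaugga
hsa-miR-429: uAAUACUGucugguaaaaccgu
hsa-miR-200a-3p: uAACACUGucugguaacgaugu
hsa-miR-141-3p: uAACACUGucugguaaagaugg
hsa-miR-205-5p: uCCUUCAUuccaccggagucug

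Methylation within 500 bp of the hairpin was over 80% in both replicates at 5 of the 6 loci, all but MIR200C, against 40.1% of 581 autosomal microRNA hairpins with at least 10 CpG reads per replicate. The windows of MIR200B and MIR200A overlap, as do those of MIR200C and MIR141, so neighbours share CpG reads and the 6 are not separate observations. In the cluster on chromosome 1, MIR200B (chr1:1167104-1167198) had 90.7% of 43 reads methylated in replicate 1 and 88.2% of 178 in replicate 2, MIR200A 100% of 36 and 89.7% of 116, and MIR429 93.5% of 31 and 94.3% of 70. In the cluster on chromosome 12, MIR200C (chr12:6963699-6963766) had 87.1% of 31 and 76.7% of 73, and MIR141 87.5% of 16 and 89.2% of 37. MIR205, alone at chr1:209432133-209432242, had 84.2% of 19 and 88.2% of 17. These windows surround the hairpins, and the starts of the primary transcripts were not analysed here.

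No peak lay on any of the 6 hairpins, while 15.7% of the 581 carried one. The nearest to MIR141 and MIR200C was the same peak, 925 and 1350 bp away, with 43.5% of 62 reads methylated in replicate 1 and 34.9% of 83 in replicate 2. The peak nearest to MIR200B and MIR200A, 4229 and 4988 bp away, had 40.2% and 26.0%. That nearest to MIR429, 4624 bp away, had 9.66% and 16.5%, and that nearest to MIR205, 1041 bp away, 0% of 63 reads and 5.45% of 55.

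Longer lists of epithelial and mesenchymal genes, 34 each and without the members, were mostly low at their starts too. Of the epithelial list 33 were measured and 29 were under 20% in both replicates, with a median of 0.810% in replicate 1 and 2.32% in replicate 2, and 26 of the 33 had a peak at the start, against 84.2% of all measured genes. Of the mesenchymal list 28 were measured and 27 were under 20%, with medians of 0.916% and 1.71%, and 21 of the 28 had a peak at the start. The shares under 20% compare with 90.7% of all measured genes. The read minimum left out 6 mesenchymal starts (TCF4, S100A4, COL3A1, TGFBR1, THY1 and FAP, named after their values were seen), and all 6 were above 20% in both replicates on the reads they had. The lowest epithelial start was that of the tight-junction gene OCLN, with 0 of 29 reads and 0 of 88, which had no peak there, and the lowest mesenchymal one that of the homeobox gene PRRX1, with 0 of 66 and 0 of 85.

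The 4 epithelial starts that were not low belonged to PKP3, CLDN4, TJP3 and CGN. PKP3, a desmosome gene, was over 80% in both replicates (93.1% ± 0.917, SD, n = 2). The claudin gene CLDN4 stood at 58.6% of 70 reads and 70.8% of 195, and the tight-junction gene TJP3 at 62.5% of 32 and 69.9% of 93. CGN, the gene of the junction protein cingulin, had 24.0% of 25 and 22% of 109. Over all measured genes 2.64% of starts were over 80% and 4.03% between 20% and 80%. Among the 28 mesenchymal starts with enough reads, the highest was that of the collagen gene COL1A1, with 37.5% of 40 reads and 19.5% of 159. COL1A1, COL1A2, COL3A1, THY1, PDGFRB and TWIST2 stand in the fibroblast marker list as well.

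**Figure D5:**
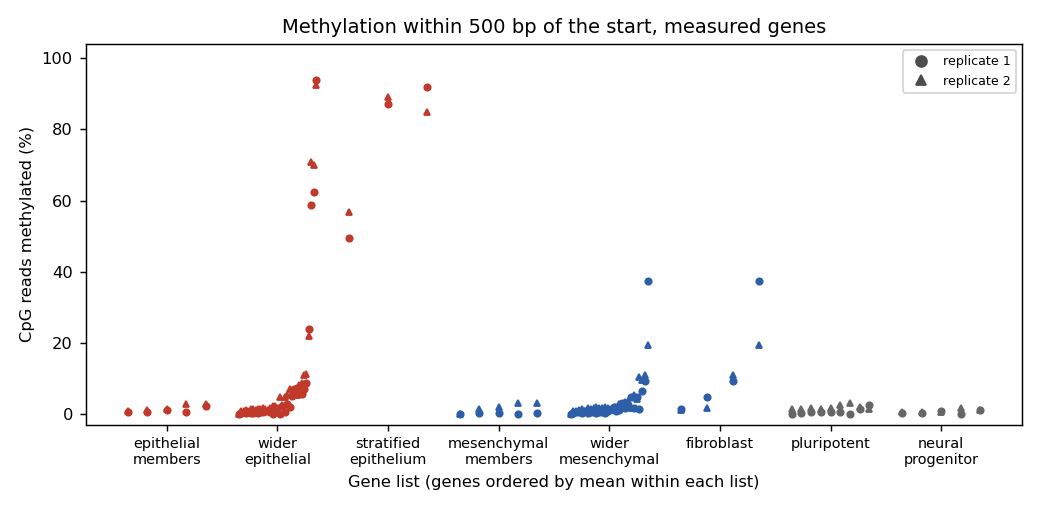
Percent of CpG reads methylated within 500 bp of the start for each measured gene of the member lists, the wider lists and the marker lists, with circles for replicate 1 and triangles for replicate 2, and genes ordered by their mean within each list. The stratified epithelium markers lie between 49.4% and 91.8%, while no member lies above the 3.0% of VIM in replicate 2.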

How the data were processed

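ATAC-Me tables of both H9 replicates were used. For each CpG the authors deposited a methylation fraction and a count of covering reads. Their deposited peak list, 1 for the group, holds a capped score (at most 1000), the caller's signal, a summit position and each q-value as its −log10. Trim Galore, Genrich and the builds hg38 and GRCh38 are named per the submitters' processing notes. For the mapper, the methylation caller, duplicate removal and the use of replicates in peak calling, the tools and settings were not given in the sources used here. A cytosine that escaped conversion reads as methylated.

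Methylated reads were the fraction times the reads, rounded (whole within 0.001 for 100.0% and 99.999% of covered CpGs). Reads were summed over a region in each replicate and the percentages averaged, so a fragment is counted at each of its CpGs. Gene intervals came from RefSeq (GRCh38.p14), and direction from its promoter table or, for 103 genes including CDH1, EPCAM, ESRP1 and SNAI2, from a list written by hand (57 entries could be checked and 57 agreed). Minimums per replicate were 20 CpG reads for a start or flank, 50 for a body and 10 for a peak. Fisher's exact test compared replicates per peak and was tested on simulated data. The simulated reads were drawn independently, so that check could not show the effect of CpGs that share a fragment. The gene classes were not tested, since genes are not replicates of a condition.

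All members and the microRNA genes are named, while the members' peaks described singly are a selection. From the wider lists, the lowest, the highest and every start over 80% or between 20% and 80% in both replicates are named. The members and lists were chosen with earlier results of these data known. The flank, the coverage and the body from 5000 bp on were added after the data were seen. The length of the unmethylated stretch was computed first and dropped, because many of its 500 bp bins held few reads. Alternatives changed windows, read minimums, weighting, peak sets, replicates and members. Python 3.11.15, numpy 2.4.6, pandas 2.3.3, scipy 1.17.1, statsmodels 0.14.6 and matplotlib 3.10.9 were used.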

Additional observations from a re-analysis of the deposited data

How the results depend on the processing

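Member starts were under 20% in all 80 recomputations, between 0% and 10.7%. The epithelial median minus the mesenchymal one at the start (-0.200 percentage points) was 1.57 within 1000 bp, 0.578 with CpGs weighted equally and -0.691 to 0.290 with 1 replicate left out. For the body (26.4) it was 3.85 from 5000 bp on, 20.2 from 2000 bp on, 16.5 with at least 5 reads per CpG, 20.7 without CDH1 or EPCAM, 32.2 without CLDN7 or ESRP1, 33.9 without CDH2 or ZEB1, 19.0 without VIM or ZEB2, and 23.4 to 29.5 with 1 replicate left out. For the flank (43.9) it was 14.4 with peaks kept in, 34.7 at 1000 to 3000 bp, 33.6 without CDH1, 28.5 without EPCAM or CLDN6, 37.3 without ZEB1 or ZEB2, and 39.4 to 48.3 with 1 replicate left out. For start coverage (0.772) it was 1.13 within 250 bp, 0.275 within 1000 bp, 0.871 without CDH1 or CLDN7, 0.541 without CDH2, 0.473 without ZEB1 or ZEB2, and 0.707 to 0.837 with 1 replicate left out. For peaks (0.113) it was 0.372 with no read minimum, 0.239 without peaks of other genes, 0.386 without CLDN7 and 0.0383 to 0.187 with 1 replicate left out. It reversed to -0.379 with intervals not extended, -0.324 for peaks above the median significance, -0.0886 without CDH1, -0.0501 without ESRP1 and -0.469 without VIM. The cause of these shifts was not tested.

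Member peaks numbered 27 with intervals not extended and 22 above the median significance, with 21 low in each case, and 34 to 35 were low with 1 replicate left out. Between replicates 47 of all peaks and 0 member peaks passed after centring and correction for overdispersion. The wider mesenchymal median (1.31%) was 2.32% within 1000 bp and 0.916% to 1.71% with 1 replicate left out, and the epithelial one (1.56%) 0.810% to 2.32%. No paired analysis was possible because the series holds 1 group. The planned use of the other gene end gave no value, since the gene and promoter tables never disagreed. All flank, coverage and 5000 bp settings, the omission of altered CpGs or of other genes' peaks, and bodies with no read minimum were added after seeing the data. With 2 replicates an SD is imprecise. Depth limits ZEB2 and CLDN7 at the start, SNAI2 in the flank and body, and CLDN6 in the body, where few reads were found. It also limits CDH2, ZEB1, VIM and ESRP1 in the outer flank.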
